A study of Rattus norvegicus with 28 samples.

Results

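WT INS-1 cells, which derive from a rat insulinoma and secrete insulin, were exposed for 1 h to 10 µM forskolin (FSK), a plant compound that activates adenylyl cyclase directly and so raises cAMP. The comparison takes the 2 WT libraries at 1 h of FSK and the 2 WT control (CON) libraries, 4 of the 28 RNA-seq libraries of the series, chosen by their titles. All cells of the series went into serum-free medium before treatment, CON cells received neither agent, and the CON labels give no hour, so the same 2 CON libraries serve as the reference at every time. For the comparisons that follow, the response was set beside the 2 WT libraries at 1 h of the peptide Ex-4 (exendin-4, 10 nM), which activates the receptor for GLP-1, those at 8 and 16 h of 10 µM FSK, and the CON and 1 h FSK libraries (2 each) of Med14 S983A cells. The S983A cells carry a CRISPR knock-in that replaces a serine of Med14, the scaffold subunit of Mediator, with alanine. They were grown from sorted single cells, more than one such line was made, and the labels do not say which line a library came from. The study calls the libraries of a group duplicates and biological replicates, without saying whether they came from separate cultures, so p-values measure the spread between these libraries, part of which may be technical.

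In beta cells, cAMP activates protein kinase A (PKA), which phosphorylates CREB at promoters that hold a cAMP response element (CRE). Many of the genes that CREB drives are transcribed without new protein synthesis. They fall into further transcription factors, such as the FOS, JUN and NR4A families, and into brakes on the pathway itself, such as CREM repressors, the kinase SIK1, RGS proteins, phosphodiesterases and DUSP phosphatases. The comparison asks which transcripts make up this first wave, and how it differs from the response to a receptor agonist, from later times and from the response of S983A cells.

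The 4 libraries held 42551133 to 51097557 fragments over the exons of RefSeq genes, recovered from the deposited values in TPM, a unit scaled for transcript length and library total, and between 10179 and 10249 genes reached 1 TPM in each. Spiked-in ERCC RNAs took 0.853% to 0.953% of each library, and replicates correlated across genes at r = 0.9987 in CON and 0.9989 in FSK. Of 16 beta cell marker genes in the table, 15 stood at 10 TPM or more in all 4 libraries, the exception being Ucn3 at 0.355 TPM at most. Their summed level was 46974 to 47913 TPM in CON and 50114 to 51189 TPM in FSK. Of 19 markers of other cell types, 16 stayed under 1 TPM in all 4 libraries and 5 were at 0 throughout (Prss1, Cela1, Col1a2, Col3a1, Ptprc). Their sum, 173 to 175 TPM in CON and 188 to 193 TPM in FSK, was mostly proglucagon (Gcg), at 165 and 169 TPM in CON and 178 and 184 TPM in FSK, and the part of other cells in the results was not tested.

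Within 1 h, FSK raised a set of genes by large factors and lowered more genes by small ones. Of 10275 genes tested, 260 rose (2.53% of those tested) and 508 fell (4.94%) by more than 1.5-fold with an adjusted p under 0.05, by limma's moderated test on log2(TPM + 1), on which scale every log2 change here is given. Rises reached 7.64 on the log2 scale, with 80 genes above 2 and 18 above 4, whereas 2 genes fell by more than 2 and 113 by more than 1. The median change over all tested genes was -0.10, and the number of falls depended on that shift. With each library centred on its median gene the counts were 331 higher (3.22%) and 291 lower (2.83%), with a median of 0.03, and 260 of those higher and 291 of those lower had been called before. Scaled to the ERCC RNAs, 272 rose (2.65%) and 427 fell (4.16%), with a median of -0.06. No gene was called in the opposite direction under either scaling. The shares of 2.53% higher and 4.94% lower are the background for the counts in the gene lists that follow. Genes were tested where they averaged 1 TPM or more across the 28 libraries. Genes very low in CON, such as Fosb, Fosl1, Nr4a3, Fst and Cxcl1, passed that filter through their other libraries. The list counts and medians therefore carry no test.

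**Figure D1:**
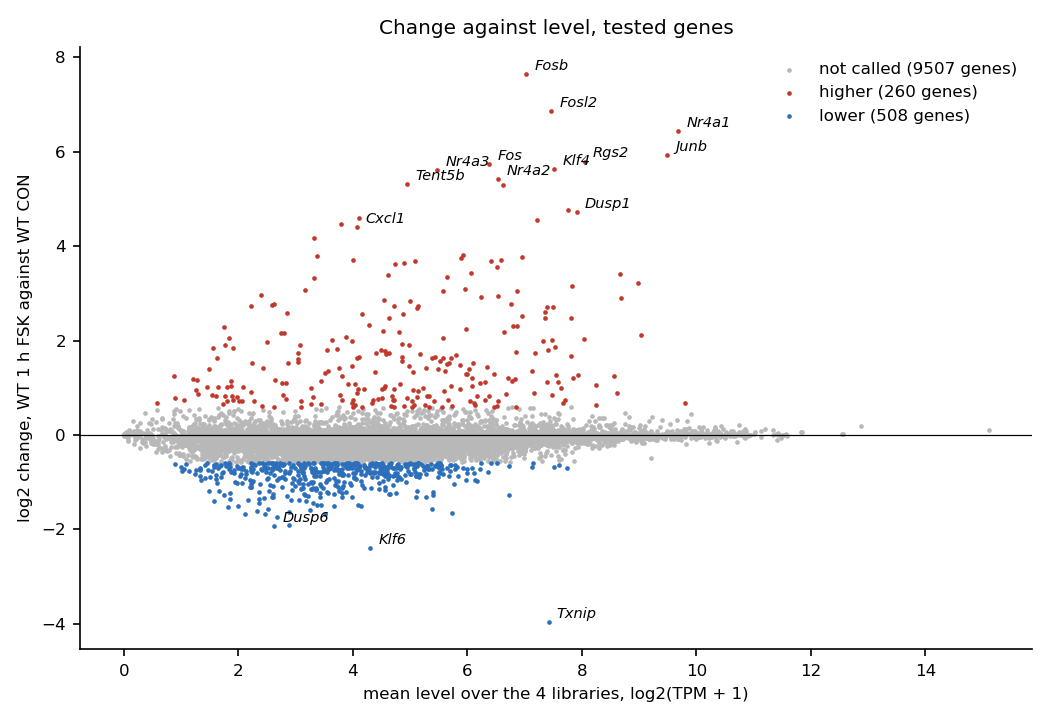
Change at 1 h of FSK against expression level for 10275 genes in WT cells. The x axis is the mean log2(TPM + 1) of the 4 libraries and the y axis the log2 change, FSK minus CON. Each point is a gene, red for the 260 called higher, blue for the 508 called lower and grey for the rest, and the rises reach 7.64 while the falls end at -3.96.

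The largest rise was that of Fosb, a FOS-family subunit of the AP-1 transcription factor. Fosb (NM_001256509, rn6 chr1:80214691-80221417, minus strand) was at 0.306 and 0.283 TPM in the CON libraries and at 253 and 262 TPM after FSK. The log2 change was 7.64 ± 0.08 (SE, adjusted p = 3.2e-28), a ratio of 875 between the mean TPM values. Fosl2, of the same family, stood at 2.05 and 1.95 TPM in CON and at 353 and 345 TPM in FSK, a change of 6.87 ± 0.08. Fosb was near silent in both CON libraries and Fosl2 was low. No FSK value overlapped a CON value, but both genes were picked on these values.

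The orphan nuclear receptor Nr4a1 reached the highest level among the 12 largest rises. It went from 17.3 and 18.4 TPM to 1578 and 1671 TPM (log2 change 6.43 ± 0.08, adjusted p = 6.1e-27). The AP-1 subunit Junb came close to it, with 22.4 and 22.1 TPM in CON and 1398 and 1427 TPM in FSK (5.93 ± 0.08). Rgs2, which speeds GTP hydrolysis by G proteins and so shortens receptor signals, stood at 8.74 and 8.08 TPM in CON and at 528 and 512 TPM in FSK (5.79 ± 0.08). Fos itself was at 2.16 and 1.91 TPM before and at 161 and 163 TPM after FSK (5.75 ± 0.10). Klf4, a Krüppel-like transcription factor, moved from 6.58 and 5.82 TPM to 357 and 359 TPM (5.64 ± 0.08). In all of these the replicates lay far closer to each other than the groups did, but the genes were picked on these values.

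Both other NR4A receptors were in the same range. Nr4a3 was at 0.824 and 0.738 TPM in CON and 86.5 and 85.6 TPM in FSK (5.61 ± 0.11), and Nr4a2 at 3.43 and 3.08 TPM against 175 and 188 TPM (5.42 ± 0.09). Tent5b, a cytoplasmic poly(A) polymerase of the TENT5 family, stood at 0.496 and 0.529 TPM in CON and at 57.8 and 60.7 TPM in FSK (5.32 ± 0.10). Sik1, a salt-inducible kinase that PKA inhibits and that holds the CRTC coactivators of CREB in the cytoplasm, went from 3.91 and 3.93 TPM to 201 and 183 TPM (5.29 ± 0.10). The small Ras-like G protein Rasd1 completed the 12, at 13.9 and 14.95 TPM in CON and 411 and 424 TPM in FSK (4.76 ± 0.08).

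**Figure D2:**
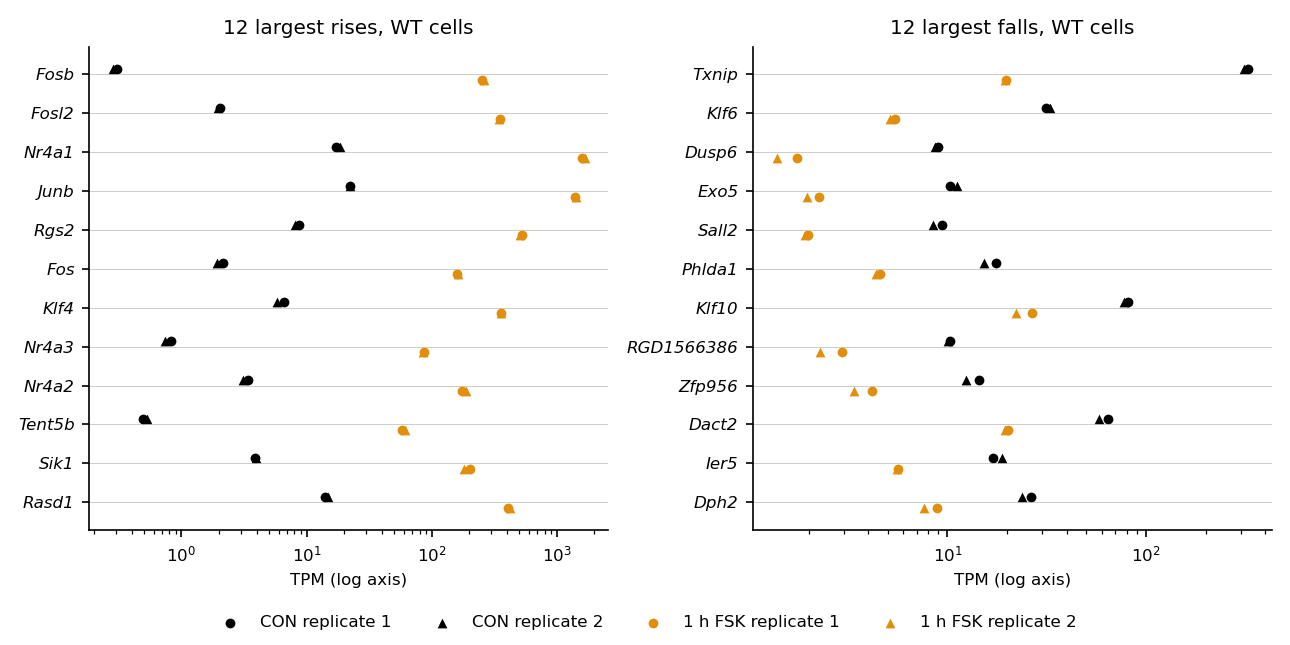
Level of the 12 genes with the largest rises and the 12 with the largest falls in each WT library. The x axis is TPM on a log scale; circles are replicate 1 and triangles replicate 2, black for CON and orange for 1 h of FSK. In each of the 24 genes both FSK libraries lie on the same side of both CON libraries, from Fosb (0.306 and 0.283 TPM against 253 and 262 TPM) to Txnip (329 and 312 TPM against 19.7 and 19.5 TPM). The genes were picked on these values, so the separation carries no test.

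The palindrome TGACGTCA, the full CRE to which CREB binds, was searched for on both strands of RefSeq promoters of the GRCr8 assembly, each window running from 250 bases before to 50 bases after a gene's start. It was present in 23 of the 197 rising genes that had a promoter in the table (11.7%) and in 12 of 413 falling genes (2.91%). Among all tested genes it was present in 293 of 8423 (3.48%), and among all 33469 promoter windows in 1.83%. The shorter TGACG, which every full CRE also contains, stood in a promoter of 51.8% of rising genes, 27.4% of falling genes and 34.3% of tested genes. The AP-1 motif TGANTCA was found in 6.09%, 3.39% and 4.75%. These are matches of letters and not binding sites, and their shares are given as a description. The 60 bases around the full CRE are printed for 11 rising genes of the gene lists, largest rises first. These genes were picked for holding the motif, and none of the 12 largest rises is among them. Each printed stretch is on the strand of its gene, with the motif in capitals and the distance from its first base to the gene's start.
Dusp1, chr10:17184703-17184762, plus strand, 124 bases before the start: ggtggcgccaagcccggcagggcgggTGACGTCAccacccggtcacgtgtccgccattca
Crem, chr17:58984715-58984774, plus strand, 56 bases before the start: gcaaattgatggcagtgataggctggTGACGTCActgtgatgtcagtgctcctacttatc
Crem, chr17:58985429-58985488, plus strand, 35 bases before another start: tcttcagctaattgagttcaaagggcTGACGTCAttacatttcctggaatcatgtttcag
Maff, chr7:112792710-112792769, plus strand, 51 bases before the start: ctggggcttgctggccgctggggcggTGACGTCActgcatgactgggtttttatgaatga
Btg2, chr13:48087858-48087917, minus strand, 201 bases before the start: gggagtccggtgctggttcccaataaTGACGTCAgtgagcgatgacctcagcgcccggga
Ppp1r15a, chr1:105139629-105139688, minus strand, 66 bases before the start: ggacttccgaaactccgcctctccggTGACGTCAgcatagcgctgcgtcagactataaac
Slc25a25, chr3:36116706-36116765, minus strand, 158 bases before the start: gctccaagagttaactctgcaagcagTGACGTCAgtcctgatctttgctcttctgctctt
Cartpt, chr2:32991344-32991403, minus strand, 142 bases before the start: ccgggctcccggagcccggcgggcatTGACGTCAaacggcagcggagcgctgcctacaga
Plk2, chr2:43702444-43702503, plus strand, 66 bases before the start: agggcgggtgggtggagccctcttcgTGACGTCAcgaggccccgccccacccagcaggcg
Ier2, chr19:40399281-40399340, plus strand, 66 bases before the start: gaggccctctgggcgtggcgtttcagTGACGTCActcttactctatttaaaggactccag
Jund, chr16:18769959-18770018, minus strand, 221 bases before the start: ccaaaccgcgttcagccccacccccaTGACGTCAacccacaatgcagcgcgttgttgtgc
Ppargc1a, chr14:63634101-63634160, plus strand, 181 bases before the start: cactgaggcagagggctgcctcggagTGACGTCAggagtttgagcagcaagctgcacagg

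Of 13 tested AP-1 genes, 10 rose (76.9%) and none fell, and their median change was 3.65. Fosb and Fosl1 passed the filter on low values through libraries other than CON, so the count and the median carry no test. AP-1 is a dimer of a FOS-family and a JUN-family protein, and small MAF proteins and ATF3 pair with the same leucine zippers. Beside Fosb, Fosl2, Junb and Fos, the rising genes were Fosl1, Atf3, Maff, Jun, Jund and Mafk. Fosl1 went from 0 and 0.104 TPM to 17.9 and 18.2 TPM, Maff from 2.91 and 3.93 TPM to 51.8 and 56.2 TPM, and Jun from 8.25 and 8.18 TPM to 57.0 and 64.1 TPM. Jund was already abundant, at 96.1 and 108 TPM in CON, and stood at 411 and 429.9 TPM after FSK. The members without a call were Batf3 (-0.19), Jdp2 (-0.57) and Mafg (-0.06).

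The broader list of immediate early genes moved in both directions. Of 31 tested, 17 rose (54.8%) and 5 fell (16.1%), with a median of 0.99. Among those that rose, Egr1, a zinc finger factor induced by many growth signals, was at 7.49 and 6.75 TPM in CON and at 116 and 109 TPM in FSK (log2 change 3.81). Gem, a small GTPase that lowers the activity of voltage-gated calcium channels, stood at 11.5 and 10.8 TPM against 146 and 168 TPM (3.70). Btg2, an antiproliferative adaptor of the CCR4-NOT deadenylase, went from 100.2 and 94.2 TPM to 908 and 918 TPM (3.22). Plk2, a polo-like kinase, and Ier2 rose by 2.21 and 2.08. The 5 that fell were Klf2, Klf6, Klf10, Ier5 and the stress gene Gadd45a. Gadd45a was at 80.6 and 84.5 TPM in CON and 42.3 and 42.0 TPM in FSK (-0.95), while Gadd45b, of the same family, rose from 11.03 and 13.1 TPM to 111 and 109.5 TPM (3.10).

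The gene for CREB itself was not called, while Crem was among the largest rises. Of 11 genes for CREB, related factors and their coactivators, 2 rose (18.2%) and none fell, with a median of -0.13. Crem, whose internal promoter gives the repressor ICER, was at 11.7 and 10.6 TPM in CON and 289.8 and 276 TPM in FSK (4.55 ± 0.08, adjusted p = 4.3e-24). Ppargc1a, a coactivator of nuclear receptors, was at 3.29 and 2.46 TPM against 8.52 and 6.73 TPM (1.16 ± 0.17). Creb1 stood at 6.04 and 6.08 TPM in CON and at 5.25 and 4.04 TPM in FSK, with no call.

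Among 6 tested genes of the salt-inducible kinase pathway (Sik1, Sik3, the upstream kinase LKB1 and 3 histone deacetylases that the kinases phosphorylate), Sik1 alone was called (16.7%). Of 18 phosphodiesterases, which break down cyclic nucleotides, 1 rose and 1 fell (5.56% each, beside 2.53% and 4.94% of all tested genes). Pde4d rose (11.3 and 10.2 TPM to 21.8 and 19.97 TPM, 0.90) and Pde4b fell at a low level (3.02 and 2.38 TPM to 1.45 and 1.14 TPM, -0.69). Pde10a was not called at 1 h, with 14.6 and 12.9 TPM in CON and 13.2 and 11.4 TPM in FSK (adjusted p = 0.16). Of 18 genes for PKA subunits, anchors and inhibitors and the cAMP sensor EPAC2, 1 rose (5.56%) and none fell. It was Akap12, an anchor for PKA, which went from 42.6 and 39.9 TPM to 62.4 and 63.7 TPM (0.60).

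Of 18 genes for receptor kinases, arrestins and RGS proteins, Rgs2 and Rgs16 rose (11.1%) and Rgs14 fell (5.56%), beside 2.53% and 4.94% of all tested genes. Rgs16 went from 122 and 117 TPM to 260.2 and 264 TPM (1.13). None of 11 genes for incretin and related receptors, their G protein and adenylyl cyclases was called, with changes between -0.55 and 0.11. Glp1r, the receptor for Ex-4, was at 95.4 and 89.8 TPM in CON and at 86.7 and 84.2 TPM in FSK.

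Phosphatases that switch off MAP kinases moved both ways. Of 16 tested DUSP, Sprouty and related genes, 6 rose (37.5%) and 2 fell (12.5%), beside 2.53% and 4.94% of all tested genes. Dusp1, a nuclear phosphatase of ERK, JNK and p38, was at 16.6 and 16.5 TPM in CON and 459.7 and 465 TPM in FSK (4.72 ± 0.05, adjusted p = 3.2e-28). Spry1, an inhibitor of receptor tyrosine kinase signals, rose from 6.70 and 5.09 TPM to 42.7 and 46.4 TPM (2.73). Dusp6, which acts on ERK in the cytoplasm, fell from 8.94 and 8.69 TPM to 1.75 and 1.38 TPM (-1.94 ± 0.09, adjusted p = 2.4e-15), and Dusp7, closely related to it, fell by 1.12.

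The primary transcript of the miR-132 and miR-212 cluster, a known CREB target, also rose. It was singled out after its values were seen. The hairpin loci Mir132 (rn6 chr10:62014995-62015095) and Mir212 (rn6 chr10:62014702-62014812) are listed as genes of their own, and a standard library measures the long precursor over them, not the mature miRNA. Their mature sequences in RefSeq are shown because both 3p arms share the seed, bases 2 to 8, given in capitals. In GRCr8 they lie on the plus strand of chromosome 10.
rno-miR-132-3p, chr10:60522091-60522112: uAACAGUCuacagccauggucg
rno-miR-212-3p, chr10:60521811-60521832: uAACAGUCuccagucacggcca
rno-miR-132-5p, chr10:60522055-60522076: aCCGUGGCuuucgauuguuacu
rno-miR-212-5p, chr10:60521771-60521794: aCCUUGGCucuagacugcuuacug

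Over the Mir132 locus the recovered fragments, rounded to whole numbers, were 0 and 1 in CON and 72 and 62 in FSK, with 0.211 and 0.173 TPM against 29.6 and 21.8 TPM (log2 change 4.47 ± 0.21, adjusted p = 5.1e-15). Over Mir212 they were 1 and 0 in CON and 27 and 21 in FSK, or 0.384 and 0 TPM against 10.3 and 6.50 TPM (2.97 ± 0.23, adjusted p = 5.4e-11). A value above 0 TPM with 0 fragments is a single read of a pair. The 1 fragment of CON replicate 2 at Mir132 is likewise a single read, rounded up. No FSK library overlapped a CON library at either locus, but with so few fragments in CON the log2 changes depend on the pseudocount.

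Irs2, an adaptor of the insulin receptor that supports beta cell survival, led the insulin signalling genes. It stood at 39.2 and 36.8 TPM in CON and at 196 and 189.6 TPM in FSK (2.31 ± 0.05, adjusted p = 6.9e-22). Of 23 tested genes of this pathway 2 rose (8.70%) and 1 fell (4.35%), beside 2.53% and 4.94% of all tested genes. The other riser was Trib3, a pseudokinase that restrains AKT, from 1.60 and 2.30 TPM to 7.23 and 6.53 TPM (1.43). The gene that fell was Phlda1, from 17.6 and 15.3 TPM to 4.55 and 4.36 TPM (-1.67). In the BCL2 family, 1 of 12 genes rose and 1 fell (8.33% each), both of them promoters of cell death. Bcl2l11, which encodes BIM, went from 19.3 and 17.8 TPM to 32.1 and 31.1 TPM (0.74), and Bbc3, which encodes PUMA, from 16.0 and 17.9 TPM to 6.02 and 6.94 TPM (-1.26).

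Genes for secreted peptides and growth factors were called in 1 direction. Of 33 in the data 16 passed the filter on low values and were tested, and of these 9 rose (56.25%) and none fell, with a median of 0.89. A gene near 0 in CON, such as Kdr, passed that filter through its other libraries, so the counts and the median carry no test. Tac1, the precursor of substance P, went from 8.40 and 7.62 TPM to 90.9 and 90.3 TPM (3.35). Hbegf, a ligand of the EGF receptor, was at 44.3 and 42.5 TPM against 289.7 and 293 TPM (2.72), and the islet peptide gene Cartpt at 7.71 and 9.07 TPM against 60.6 and 58.3 TPM (2.69). Penk, Nmu, Cck, Vegfa, Stc1 and Kdr also rose. Kdr is a receptor for VEGF and not a secreted protein, and it also marks endothelial cells. It went from 0.399 and 0.41 TPM to 2.39 and 2.02 TPM (1.19).

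The BMP and TGF-beta genes that rose included both a ligand and an inhibitor. Of 19 tested, 5 rose (26.3%) and none fell. Fst, the activin antagonist follistatin, was at 0.289 and 0.458 TPM in CON and 31.9 and 32.3 TPM in FSK (4.59 ± 0.09). Bmp2 was at 4.29 and 4.20 TPM against 17.2 and 17.1 TPM (1.79). All 4 Id genes rose as well, out of 12 tested genes for ID and Notch effector proteins (33.3%). ID proteins block basic helix-loop-helix factors, and Id4 was the highest, at 42.2 and 47.9 TPM in CON and 416 and 399 TPM in FSK (3.15). Id1, Id2 and Id3 rose by 1.63, 1.71 and 1.64.

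Clock genes and genes for mRNA decay were also among the rises. Of 17 tested clock genes 4 rose (23.5%) and 1 fell (5.88%). Per1, a repressor of the clock loop with known CREs, went from 21.4 and 19.04 TPM to 166 and 159 TPM (2.95), Nfil3 from 16.6 and 15.6 TPM to 230.0 and 233 TPM (3.77), and Cry2 from 46.4 and 44.5 TPM to 284 and 278 TPM (2.60). Nr1d1, which encodes the repressor REV-ERB alpha, fell from 19.1 and 17.6 TPM to 8.05 and 8.12 TPM (-1.09). Of 17 genes for mRNA decay 6 rose (35.3%) and none fell. Beside Btg2, they were Btg1 (192 and 197 TPM to 841 and 851 TPM, 2.12), Tob1 (2.00), the ribonucleases Zc3h12a (1.96) and Zc3h12c (1.47), and Zfp36 (0.99).

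Of 14 tested cytokine and NF-kB genes, the chemokine gene Cxcl1 rose (7.14%) and 2 fell (14.3%), beside 2.53% and 4.94% of all tested genes. Cxcl1 stood at 0.501 and 0.56 TPM in CON and at 31.4 and 31.1 TPM in FSK (4.40 ± 0.11, adjusted p = 9.1e-21). Socs1 and Cish, both inhibitors of cytokine receptors, fell by 1.02 and 1.11. Nfkbia, an inhibitor of NF-kB, was also called higher with median centring (0.69) and with ERCC scaling (0.59).

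The largest fall was that of Txnip, an alpha-arrestin that binds thioredoxin and limits glucose uptake, and that glucose induces in beta cells. Txnip (NM_001008767, rn6 chr2:198683168-198686968, plus strand) went from 329 and 312 TPM to 19.7 and 19.5 TPM (-3.96 ± 0.08, adjusted p = 1e-22), and the ratio of the CON mean to the FSK mean was 16.3. Of 25 tested genes of glucose handling and the Txnip family, 3 fell (12%) and none rose, although Pfkfb3, a regulator of glycolysis, was called higher with median centring (0.66). The others that fell were the alpha-arrestins Arrdc3 (12.9 and 12.1 TPM to 4.81 and 5.33 TPM, -1.15) and Arrdc2 (-0.84). The fall of Txnip within 1 h was far larger than that of the next gene, Klf6, a Krüppel-like factor. Klf6 went from 31.6 and 32.8 TPM to 5.46 and 5.13 TPM (-2.40 ± 0.06, adjusted p = 1.5e-20).

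Behind Txnip, Klf6 and Dusp6, the 12 largest falls included 3 further DNA-binding factors. Klf10, a Krüppel-like factor, was at 81.2 and 77.6 TPM in CON and at 26.6 and 22.3 TPM in FSK (-1.66). Sall2, a zinc finger factor, was at 9.35 and 8.42 TPM against 1.98 and 1.92 TPM (-1.74), and the zinc finger gene Zfp956 at 14.4 and 12.4 TPM against 4.15 and 3.38 TPM (-1.60). Dact2, a modulator of Wnt and TGF-beta signals, went from 64.3 and 58.2 TPM to 20.2 and 19.5 TPM (-1.58). Ier5 was at 17.03 and 18.8 TPM in CON and at 5.62 and 5.60 TPM in FSK (-1.52). The others were Exo5, an exonuclease (-1.92), Phlda1 (-1.67), RGD1566386 (-1.64) and Dph2, of diphthamide synthesis (-1.50). In none of them did the FSK libraries overlap the CON libraries, but they were picked on these values.

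Zinc finger genes were among the falls. Of 158 tested genes named Zfp, Znf, Zkscan or Zscan, most of which encode DNA-binding proteins with many C2H2 fingers, 62 fell (39.2%, beside 4.94% of all tested genes) and 4 rose. Their median change was -0.45, 146 of the 158 were below 0, and the falls were small. Zfp870 went from 3.30 and 3.32 TPM to 0.718 and 0.566 TPM (-1.39), Zfp46 from 7.10 and 6.57 TPM to 2.24 and 1.95 TPM (-1.34) and Zfp763 from 7.90 and 7.47 TPM to 2.52 and 2.48 TPM (-1.31). The 4 that rose were Zfp703 (1.66), Zfp395 (1.13), Zfp707 (1.105) and Zfp36, which binds RNA and not DNA (0.99). With libraries centred on the median gene, 45 fell and 6 rose with a median of -0.32, and with ERCC scaling 57 fell and 4 rose with a median of -0.42. In the related Zbtb genes, 9 of 34 fell (26.5%) and 2 rose, with a median of -0.33. Zbtb3 had the largest fall of these, from 5.84 and 5.43 TPM to 1.11 and 1.06 TPM (-1.67). Centring left 5 falls and 2 rises among them.

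Of 19 transcription factors of beta cell identity, 2 fell (10.5%, beside 4.94% of all tested genes) and none rose. Gata6, a regulator of pancreas development, went from 8.08 and 7.75 TPM to 4.16 and 4.27 TPM (-0.77), and Neurod1, an activator of the insulin genes, from 234 and 214 TPM to 141 and 136 TPM (-0.69). Nkx2-2 was just under the threshold, at 93.0 and 80.7 TPM in CON and 133 and 128 TPM in FSK (0.58). The counts in this list moved with scaling. They were 3 higher and 1 lower with median centring, where Neurod1 lost its call (-0.55), and 1 higher and 2 lower with ERCC scaling.

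Of 30 tested Mediator subunits, 3 fell (10%, beside 4.94% of all tested genes) and none rose. The 3 were Med7 (38.2 and 42.0 TPM to 22.3 and 21.6 TPM, -0.84), Med9 (-0.66) and Med18 (-0.66). With median centring 1 of them fell. Med14 was at 21.5 and 20.3 TPM in CON and at 22.4 and 20.4 TPM in FSK (0.03, adjusted p = 0.75).

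None of 24 tested genes for insulin, its processing, its granules and their release was called, and their changes ran from -0.15 to 0.46. With median centring 1 of them, the granule peptide gene Vgf, was called higher (0.59). Ins1 was at 34501 and 33716 TPM in CON and at 35900.1 and 37026 TPM in FSK (0.10, adjusted p = 0.16), and Ins2 at 2885 and 2991 TPM against 2792 and 2794 TPM (-0.07, adjusted p = 0.32). Iapp, the amyloid peptide secreted with insulin, stood at 7007 and 6973 TPM in CON and 7980.1 and 8003 TPM in FSK. Of 69 cytosolic ribosomal proteins none was called, with changes between -0.19 and 0.14. Among 23 ion channel genes of stimulus-secretion coupling, 1 fell (4.35%) and none rose. Kcnh6, a potassium channel, fell from 57.2 and 53.5 TPM to 37.8 and 33.0 TPM (-0.63), a call that was lost with median centring (-0.50).

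**Figure D3:**
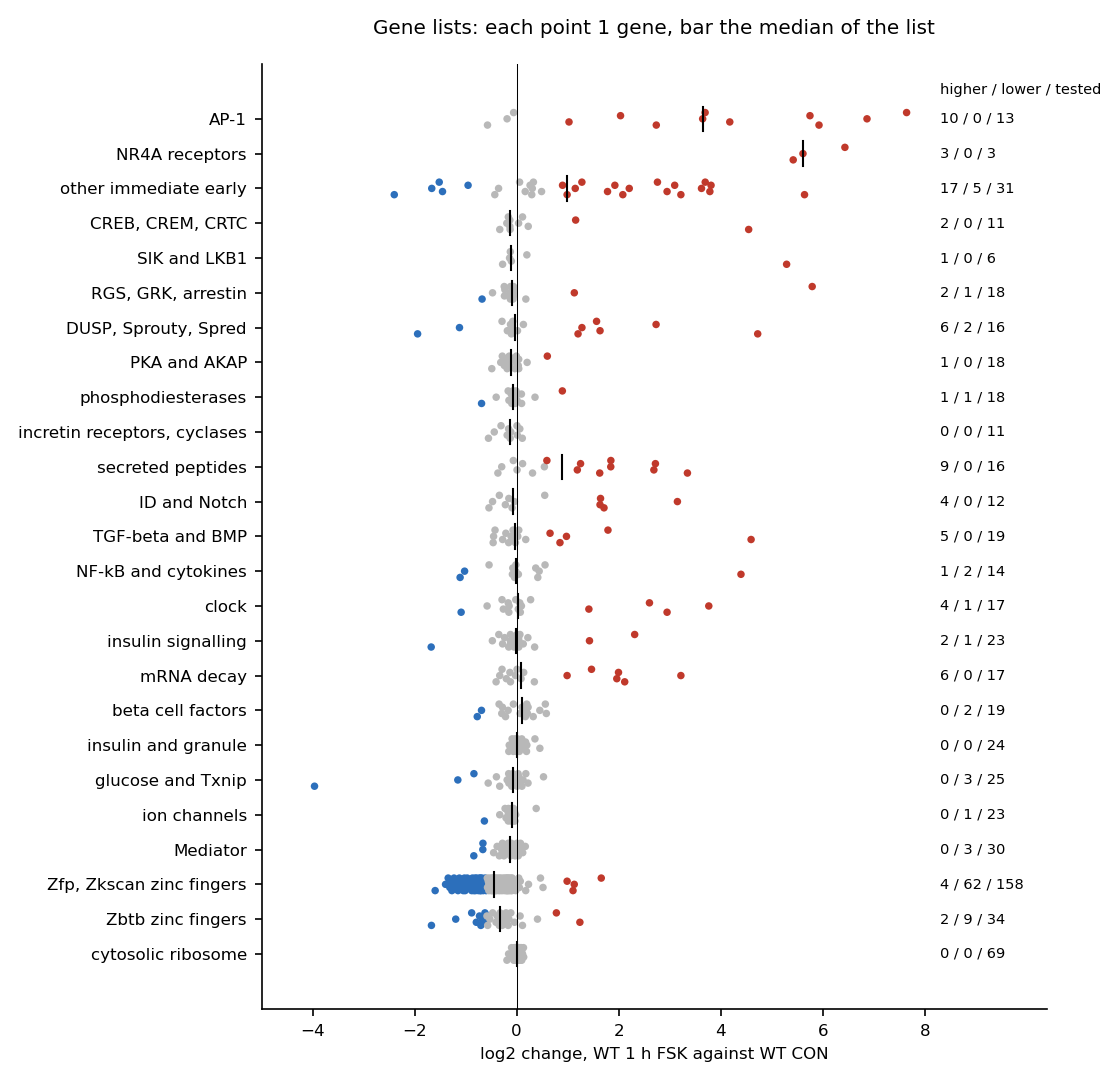
Change of single genes at 1 h of FSK against CON in WT cells, by gene list. The x axis is the log2 change; each point is a tested gene, red where called higher, blue where called lower and grey otherwise, the vertical bar is the median of the list, and the numbers give genes higher, lower and tested. AP-1 and NR4A genes lie far to the right (medians 3.65 and 5.61), zinc finger genes lie left of 0 (median -0.45), and the insulin and granule genes stay between -0.15 and 0.46.

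The genes that moved were shorter, by their span in the rn6 annotation, than tested genes at large. The median span from first to last exon base was 7949 bases for rising genes, 10250 bases for falling genes and 20783 bases for all tested genes. Spans under 5000 bases made up 39.6%, 29.7% and 14.8%, and spans within 1.1 times the exon length, as in genes with little or no intron, 12.3%, 9.06% and 3.04%. The exon lengths themselves were alike, with medians of 2025, 2258 and 2142 bases. In CON the median level was 11.8 TPM for rising genes, 15.6 TPM for falling genes and 30.0 TPM for all, and 30 of the 260 rising genes (11.5%) were under 1 TPM in CON, against 200 of all tested (1.95%). Since a gene near 0 in CON passed the filter on low values through its other libraries, that share carries no test.

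FSK and Ex-4 at 1 h were compared directly, since both raise cAMP, FSK at the cyclase and Ex-4 through the GLP-1 receptor. At 10 µM FSK and 10 nM Ex-4, 117 genes were higher with FSK (1.14% of those tested) and 67 lower (0.652%). Cxcl1 differed most, with 31.4 and 31.1 TPM under FSK and 2.62 and 2.53 TPM under Ex-4 (log2 difference 3.17, adjusted p = 2.5e-16). Fosb was at 253 and 262 TPM against 31.8 and 36.8 TPM (2.88, adjusted p = 3.5e-18), and Klf4 at 357 and 359 TPM against 55.9 and 58.1 TPM (2.63). Fosl1 and the transcript Lnc056 were the others of the 5 largest, with differences of 2.46 and 2.67. In all of these genes both Ex-4 libraries were themselves above both CON libraries, so that the agents differed in the size of the rise.

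On the side of lower levels with FSK, Txnip stood at 19.7 and 19.5 TPM against 80.8 and 75.4 TPM with Ex-4 (-1.94, adjusted p = 7.3e-15). Klf6 was at 5.46 and 5.13 TPM against 11.2 and 10.8 TPM (-0.93), and the others of the 5 largest were Klf2 (-1.05), Ddx28, a mitochondrial RNA helicase (-0.94), and Klf10 (-0.88). Dusp6, below the level set for this list, was at 1.75 and 1.38 TPM with FSK and at 8.12 and 6.84 TPM with Ex-4, which lay close to CON (-1.73). Irs2 stood at 196 and 189.6 TPM with FSK and 150.1 and 157 TPM with Ex-4, and Sik1 was at 201 and 183 TPM against 116 and 115 TPM. Over the 260 rising genes the median change from CON was 1.39 with FSK and 0.89 with Ex-4, and over the 508 falling genes -0.76 and -0.45. Both comparisons share the CON libraries, and the genes were picked on the FSK values, so these medians carry no test.

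**Figure D4:**
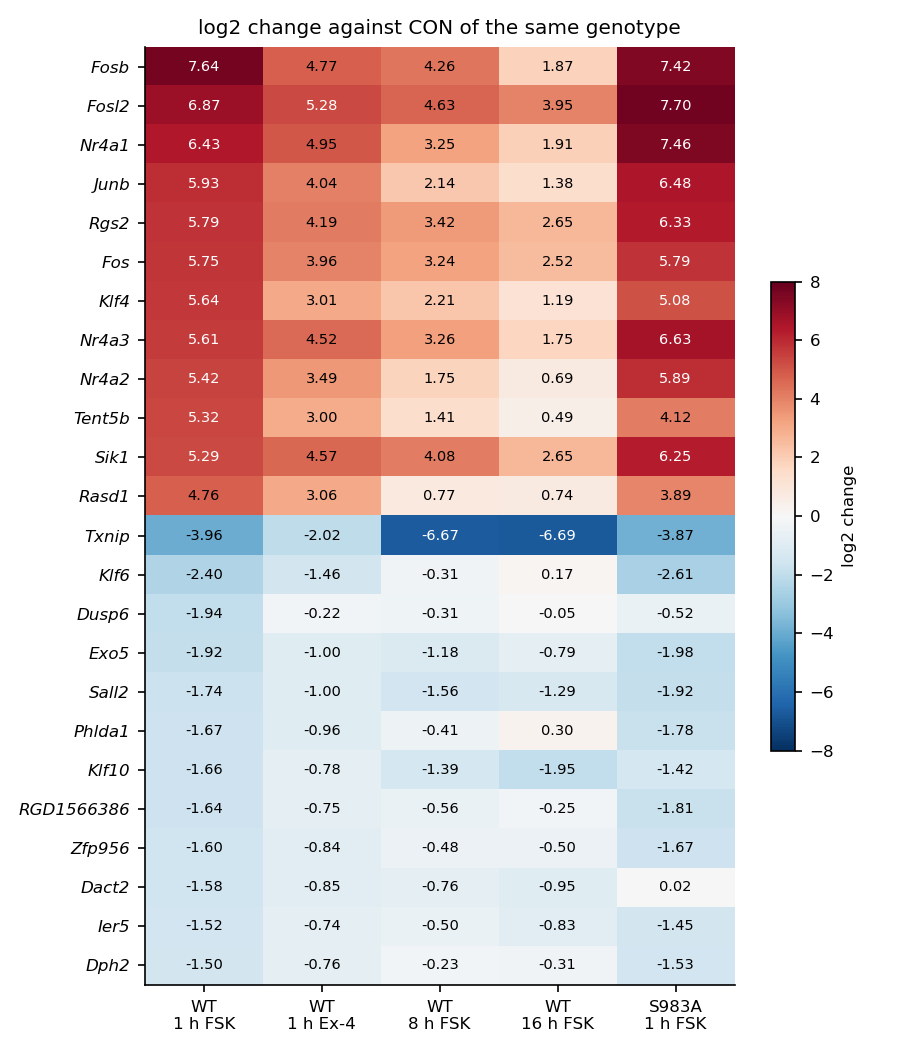
Log2 change from CON of the 12 largest rises and the 12 largest falls at 1 h of FSK, in 5 conditions. Rows are genes, columns are WT cells at 1 h of FSK, 1 h of Ex-4, 8 h and 16 h of FSK and S983A cells at 1 h of FSK, red is higher and blue lower than CON of the same genotype, and the value is printed in each cell. The WT columns share the CON libraries. Fosb stands at 7.64 in the first column and Txnip at -3.96.

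More genes moved between 1 and 8 h of FSK than within the first hour. Between these times 990 genes rose (9.64%) and 2911 fell (28.3%), with a median of -0.20 over all tested genes, and with median centring the counts were 1802 higher (17.5%) and 1918 lower (18.7%). Among the first responders, the largest declines were those of Rasd1 and Tent5b. Rasd1 was at 411 and 424 TPM at 1 h and at 25.8 and 24.7 TPM at 8 h (-3.99, adjusted p = 1.6e-23), and Tent5b at 57.8 and 60.7 TPM against 3.13 and 2.93 TPM (-3.90, adjusted p = 2.5e-21). Fosb was at 24.2 and 23.5 TPM at 8 h and 3.87 and 3.58 TPM at 16 h, still above both CON libraries. The median of the 260 rising genes was 1.39 over CON at 1 h, and 0.95 and 0.68 at the later times, and that of the falling genes -0.76, -0.57 and -0.37. The times share the CON libraries, and the genes were chosen at 1 h.

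Crem declined less than these, to 171 and 172 TPM at 8 h (-0.72, adjusted p = 1.3e-08) and 86.4 and 80.4 TPM at 16 h. Irs2, not called between 1 and 8 h, was at 166 and 171 TPM at 8 h and 123 and 125 TPM at 16 h. Some early genes went higher. Fst went on to 108 and 122 TPM at 8 h, Cck to 535 and 530.4 TPM and Tac1 to 208 and 236 TPM. Txnip fell further, to 2.32 and 1.99 TPM at 8 h and 1.92 and 2.33 TPM at 16 h, whereas Klf6 was back at 25.7 and 25.8 TPM at 8 h and 34.6 and 38.1 TPM at 16 h, beside 31.6 and 32.8 TPM in CON.

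The 5 largest rises between 1 and 8 h started from low levels. Sv2c, a synaptic vesicle protein, went from 0.459 and 0.524 TPM to 36.5 and 39.2 TPM (4.70), and Plat, tissue plasminogen activator, from 2.17 and 1.73 TPM to 63.7 and 71.8 TPM (4.54, adjusted p = 3.5e-23). The orphan receptor Gprc5a was at 3.15 and 2.96 TPM at 1 h and at 70.9 and 78.5 TPM at 8 h (4.22). Tgfb2 (3.91) and Nmu, the neuropeptide neuromedin U (3.73), completed the 5, and of these Gprc5a (1.39) and Nmu (1.84) had already risen over CON at 1 h. Pgm5, a relative of phosphoglucomutase, fell most between these times, from 80.6 and 81.2 TPM to 3.71 and 3.10 TPM (-4.22), followed by Phkg1, a subunit of phosphorylase kinase (-4.08), and Lrrc39 (-4.01). Pde10a, without a call at 1 h, was at 88.6 and 85.8 TPM at 8 h, and Gcg was at 1225 and 1345 TPM.

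The 1 h response of S983A cells was compared with that of WT cells as the difference of the 2 changes from each genotype's own CON. It differed for 90 genes with a higher change in S983A (0.876%) and 79 with a lower change (0.769%). ERCC scaling changed that split to 48 higher (0.467%) and 251 lower (2.44%), and moved the median difference over all genes from -0.01 to -0.26. The medians of the 260 rising and 508 falling genes of WT cells were 1.47 and -0.83 in S983A cells, beside 1.39 and -0.76 in WT. The interaction uses the same WT libraries that chose those genes.

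Among the genes named above, the largest difference in favour of S983A was that of Crem, at 5.48 and 3.97 TPM in S983A CON and 409.5 and 479.5 TPM after FSK, against 11.7 and 10.6 TPM and 289.8 and 276 TPM in WT (difference 1.74, adjusted p = 4.9e-11). Arhgap45, a GTPase-activating protein, was near 0 in both WT groups, with 0.011 and 0.023 TPM after FSK, and was at 0.136 and 0.263 TPM in S983A CON and 24.1 and 25.3 TPM in S983A FSK (4.42, adjusted p = 6.7e-18). The receptor tyrosine kinase gene Ephb3 behaved likewise, at 0.971 and 1.20 TPM in WT FSK and at 46.1 and 52.4 TPM in S983A FSK (4.13, adjusted p = 1.3e-18). Errfi1, an inhibitor of the EGF receptor, stood at 45.5 and 44.1 TPM in WT FSK and 187 and 203 TPM in S983A FSK (1.65). The cell cycle inhibitor Cdkn1a started lower in S983A, at 6.30 and 5.99 TPM in CON against 25.1 and 23.01 TPM in WT, and reached 27.7 and 30.0 TPM against 32.5 and 34.1 TPM (1.61).

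Cxcl1 rose far less in S983A cells, from 0.156 and 0.312 TPM to 2.35 and 1.80 TPM, against 31.4 and 31.1 TPM in WT FSK (-3.08, adjusted p = 6.4e-13). Myc, a driver of cell growth, went from 55.5 and 56.5 TPM to 5.26 and 5.60 TPM in S983A cells, while in WT it stood at 69.4 and 70.5 TPM in CON and 52.0 and 51.5 TPM in FSK (-2.72, adjusted p = 1.2e-19). Arc, an immediate early gene, was at 10.6 and 11.9 TPM in S983A CON and 7.15 and 8.02 TPM in S983A FSK, whereas WT went from 11.01 and 11.2 TPM to 45.2 and 44.7 TPM (-2.44). Cebpd, a C/EBP transcription factor, reached 27.5 and 26.4 TPM in S983A and 110.0 and 109 TPM in WT (-2.08). Sertad2 was at 4.67 and 4.48 TPM in S983A FSK and 18.1 and 20.03 TPM in WT FSK, with 3.60 and 3.86 TPM in S983A CON and 4.04 and 3.90 TPM in WT CON (-1.77).

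**Figure D5:**
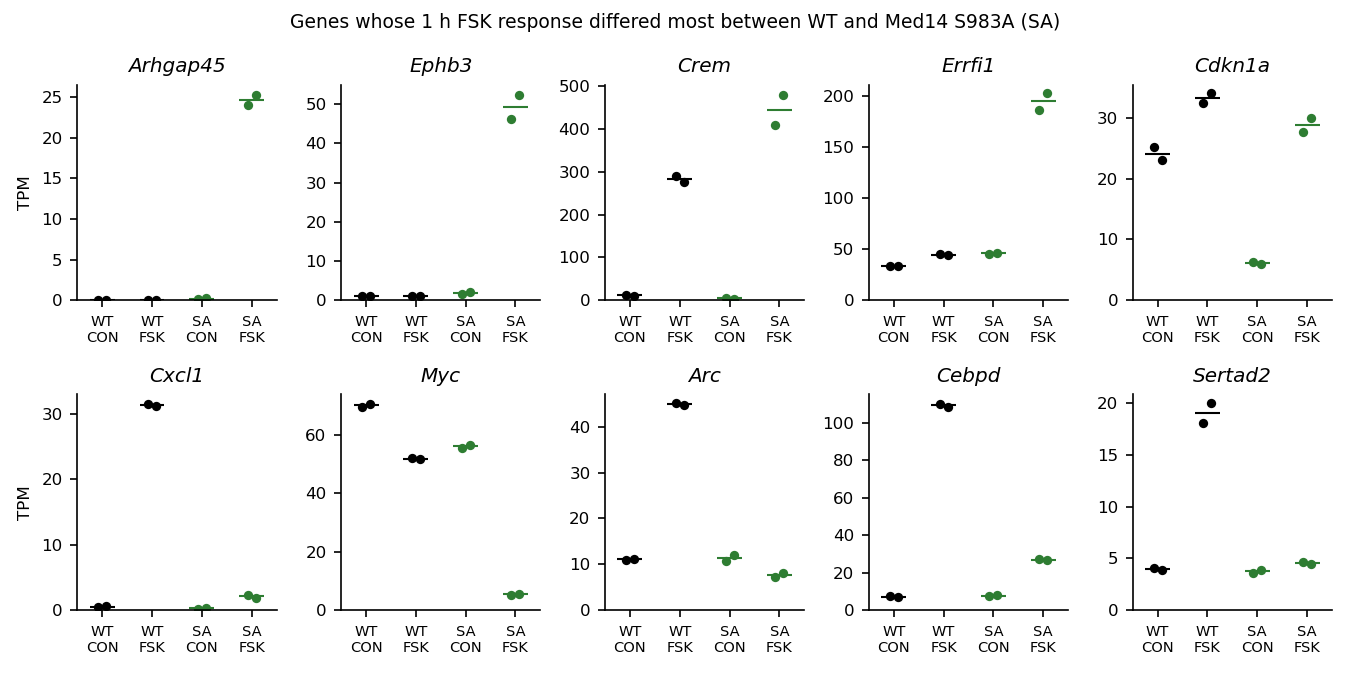
Levels of 10 genes, the 5 with the largest difference in 1 h FSK response between genotypes in each direction among called genes averaging 5 TPM or more. The y axis of each panel is TPM; points are libraries and lines group means for WT CON, WT FSK, S983A CON and S983A FSK. Arhgap45 and Ephb3 are high in S983A FSK alone (24.1 and 25.3 TPM, 46.1 and 52.4 TPM), Cxcl1 in WT FSK alone (31.4 and 31.1 TPM), and Myc is lowest in S983A FSK (5.26 and 5.60 TPM).

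The leading rises and the fall of Txnip were seen in S983A cells as well. Fosb was at 0.228 TPM in both S983A CON libraries and 208 and 211 TPM after FSK, and Nr4a1 at 6.53 and 7.36 TPM against 1440.0 and 1363 TPM. Txnip started lower, at 55.9 and 52.9 TPM in S983A CON, and was at 3.02 and 2.55 TPM after FSK. For Fosl2, S983A reached 466 and 557 TPM, above both WT FSK libraries, and its difference passed the test (0.83). That call was lost with edgeR and DESeq2 on ERCC-scaled fragments. Among the 12 largest rises the differences of Nr4a1 (1.03), Nr4a3 (1.02) and Sik1 (0.96) also passed. Those of Tent5b (-1.20) and Rasd1 (-0.88) passed in the other direction.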

How the data were processed

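RNA was spiked with ERCC Mix 1, made into stranded NEBNext Ultra II libraries and sequenced in pairs. The authors aligned reads to rn6 and the ERCC sequences with STAR 2.5.3a, and the deposited TPM values are their HOMER 4.11.1 estimates over RefSeq exons; the deposited ERCC counts gave the ERCC scaling. Of 19223 lines, 92 ERCC sequences were set aside and 1676 transcripts dropped so that each of 17455 symbols kept its transcript with the highest mean TPM. Genes averaging 1 TPM or more across the 28 libraries were tested (10275) on log2(TPM + 1), which understates the change of low genes, with limma 3.58.1 (R 4.3.3, trended eBayes) and 14 group means over all libraries, which left 14 residual degrees of freedom. Adjusted p-values are Benjamini-Hochberg over all tested genes, and calls need adjusted p under 0.05 and a fold over 1.5. The study's own method was DESeq2 1.24.0 with ERCC size factors.

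All 124685 low TPM values checked were whole multiples of 1 read within 0.05 reads (100%, against 22.61% by chance), 2 reads to a fragment, so edgeR 4.0.16 and DESeq2 1.42.0 were run on recovered fragments as alternatives. On simulated data with 200 changed genes among 10275 for WT 1 h FSK against CON, limma called 98% of those changed 2-fold and 100% of those changed 3-fold. Changes under 2-fold and a shift of the median gene were not simulated.

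The genes named are the 12 largest changes each way among called genes at 5 TPM or more (5 each way for the other comparisons) and called members of gene lists. The comparison and the lists were chosen with earlier results of these data known. Motif shares describe genes matched to promoters by transcript accession or, failing that, by symbol. A gene counted if any of its promoter windows held the motif. Genome builds were never converted. One list member is not reported here.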

Additional observations from a re-analysis of the deposited data

Results flagged for a closer look

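The results given here are those where the 1 h FSK response differed between Med14 S983A and WT cells by limma's test of the difference itself (S983A minus WT, log2 scale). Over all tested genes there were 90 with a higher and 79 with a lower change in S983A. A higher change is a positive difference and need not be a higher level after FSK. Nr4a1, for instance, stood lower after FSK in S983A than in WT. Among the named genes, transcription factors with a higher change in S983A were Crem (1.74), Maff (1.06), Nr4a1 (1.03), Nr4a3 (1.02), Fosl2 (0.83) and Csrnp1 (0.715), with the inhibitors of differentiation Id4 (1.33) and Id2 (0.92), the clock gene Per1 (0.82) and the coactivator Ppargc1a (0.91).

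Signalling and other genes with a higher change were Arhgap45 (4.42), Ephb3 (4.13), Errfi1 (1.65), Cdkn1a (1.61), Dact2 (1.59), Hbegf (1.45), Dusp6 (1.42), Rgs16 (1.07), Gadd45a (1.055), Sik1 (0.96), Dusp4 (0.87), Plk3 (0.68), Dusp5 (0.68), Pde4d (0.67), Akap12 (0.65), Stard4 (0.64) and Gadd45b (0.59). Dact2 stood at 0.04 and 0.106 TPM in S983A CON, against 64.3 and 58.2 TPM in WT CON. Dusp6 and Gadd45a fell in WT (-1.94 and -0.95) and changed less in S983A (-0.52 and 0.10), so their positive differences are not larger rises.

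Transcription factors and other regulators of transcription with a lower change in S983A were Myc (-2.72), Npas4 (-2.26), Cebpd (-2.08), Sertad2 (-1.77), Zfp703 (-1.36), Neurod1 (-1.21), Nr1d1 (-0.88), Id3 (-0.71) and Ciart (-0.64). The other genes with a lower change were Cxcl1 (-3.08), Arc (-2.44), Nmu (-1.865), Gem (-1.77), Tent5b (-1.20), Dusp10 (-1.002), Kdr (-0.97), Rasd1 (-0.88), Spry1 (-0.83), Dusp1 (-0.81), Gprc5a (-0.72) and Bmp2 (-0.62). Gprc5a was low throughout, at 0.493 and 0.597 TPM in WT CON, 3.15 and 2.96 TPM in WT FSK, 0.062 and 0.018 TPM in S983A CON and 0.694 and 0.628 TPM in S983A FSK, and its difference was positive, without a call, with a pseudocount of 0.1 (0.17) and in edgeR (1.38) and DESeq2 (1.46). Kdr, Nmu and Bmp2 lost the call with edgeR and DESeq2 on recovered fragments (edgeR -0.50, -3.57 and -0.58). With ERCC scaling, Akap12, Csrnp1, Dusp5, Gadd45b, Pde4d, Per1, Plk3 and Stard4 lost the call, and with edgeR or DESeq2 on ERCC-scaled fragments Dact2, Fosl2, Kdr and Nmu lost it, as did Ppargc1a with DESeq2.

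These smaller differences also rested on single libraries. Without S983A FSK replicate 2 the calls of Ppargc1a (0.52), Stard4 (0.50), Akap12 (0.52), Pde4d (0.54), Gadd45b (0.57), Id3 (-0.52) and Ciart (-0.48) were lost. Calls were also lost for Ppargc1a (0.76) and Stard4 (0.56) without WT CON replicate 1, Gadd45b (0.47) and Ciart (-0.58) without WT CON replicate 2, Gadd45b (0.58) and Ppargc1a (0.76) without WT FSK replicate 2, Gadd45b (0.50) and Ppargc1a (0.82) without S983A CON replicate 1, and Bmp2 (-0.57) and Stard4 (0.52) without S983A CON replicate 2.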

How the results depend on the processing

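For WT 1 h FSK against CON, edgeR called 360 genes higher and 431 lower, of which 258 and 390 were also called by limma, and the count of falls was 291 with median centring. Leaving out 1 library gave 254 to 271 higher and 472 to 574 lower, and with a replicate block it was 260 and 508, the same genes. Without the fold threshold 710 rose and 3828 fell. For FSK against Ex-4 the counts were 339 and 1029 without that threshold, 117 lower with a pseudocount of 0.1, and 117 to 120 higher and 58 to 84 lower when 1 library was left out. For 8 h against 1 h, rises numbered 1802 with median centring, 1686 with edgeR, 1761 with DESeq2 and 2826 without the fold threshold, falls numbered 1918 with median centring and 5498 without the threshold, and leaving out a library gave 959 to 1041 and 2826 to 3011. For the difference between genotypes, ERCC scaling gave 48 higher and 251 lower, edgeR with ERCC scaling 49 and 427, DESeq2 with ERCC size factors 52 and 302, no fold threshold 299 and 301, and leaving out a library 73 to 128 and 69 to 86. The causes were not tested. Gprc5a, at -0.72 in that difference, was at 0.17 with a pseudocount of 0.1, 1.38 with edgeR, 1.46 with DESeq2, 1.09 with edgeR and ERCC scaling and 1.17 with DESeq2 and ERCC size factors, none of them called.

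Replicate numbers were not used to pair the samples. The replicate differences of CON and 1 h FSK correlated at 0.145 in WT and -0.239 in S983A. All 91 group pairs, which include these, ran from -0.280 to 0.283 with a median of 0.003, so whether the replicates were paired was not settled. Over the named genes and comparisons, 3280 values under alternatives kept their call or stayed without one, 74 lost and 20 gained a call, and 5 changed direction, all of Gprc5a. In WT 1 h FSK against CON, median centring ended calls outside the zinc finger lists for Kcnh6, Med9, Med18, Neurod1, Pde4b, Rgs14, Foxc1, Foxq1, Slc25a38 and Slc25a42 among list members. Leaving out CON replicate 1 ended the calls of Stc1 (0.57) and Pde4b (-0.56), leaving out CON replicate 2 those of Akap12 (0.55), Smad9 (0.58) and Stard4 (0.51), and leaving out FSK replicate 1 or 2 those of Stard4 (0.54) and Kcnh6 (-0.54).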

Other observations

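Among forkhead genes, 1 of 18 tested rose (5.56%) and 2 fell (11.1%) at 1 h of FSK in WT cells. Over all tested genes the shares were 2.53% and 4.94%. Foxa3, a liver and islet factor, went from 18.1 and 17.5 TPM to 46.5 and 46.6 TPM (log2 change 1.34), and Foxc1 (-0.63) and Foxq1 (-0.61) fell, calls that were lost with median centring. Of 13 Krüppel-like factors 2 rose (15.4%, Klf4 and Klf13) and 3 fell (23.1%, Klf2, Klf6 and Klf10).

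Of 196 solute carriers 5 rose (2.55%) and 4 fell (2.04%), beside 2.53% and 4.94% of all tested genes, and with median centring 6 rose and 2 fell. Slc25a25, a calcium-dependent carrier of ATP-Mg in mitochondria, went from 47.4 and 46.7 TPM to 313 and 314 TPM (2.71), and the amino acid carriers Slc1a4 (11.05 and 9.31 TPM to 35.3 and 35.9 TPM, 1.72) and Slc7a5 (1.12) rose with it. Of 27 genes of cholesterol synthesis and handling, 2 rose (7.41%), Insig1, which retains the SREBP complex in the ER (67.7 and 67.9 TPM to 149.9 and 152 TPM, 1.14), and the sterol carrier Stard4 (0.59), and Idi1 joined them with median centring (0.63). Of 26 genes of ER and ATF4 stress, 2 rose (7.69%), Ppp1r15a, which directs a phosphatase to the initiation factor eIF2 alpha (24.02 and 24.6 TPM to 204 and 210.4 TPM, 3.04), and Trib3 (1.43), and Ddit3 (0.63) and Chac1 (0.60) joined them with median centring. Of 20 chromatin regulators and corepressors, 1 fell (5%), Nrip1 (-0.75), and none rose, although Kdm6b was called higher with median centring (0.64).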
